A study of Mus musculus with 6 samples.

Results

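The oxidative phosphorylation genes were taken as the rows whose symbol begins with Nduf, Uqcr, Atp5, Cox4, Cox5, Cox6, Cox7, Cox8, mt-Nd, mt-Co, mt-Cyt or mt-Atp, with Sdha, Sdhb, Sdhc, Sdhd and Cyc1 added. Of 128 rows that matched, 14 pseudogenes with -ps in the symbol and 11 rows with a mean below 1 TPM (the level of a transcript, scaled for its length and to a fixed total per library) were left out. The remaining 103 genes, 90 nuclear and 13 mitochondrial, stand among 12510 genes tested and 53700 rows listed. Ndufa4l2 lay just under the minimum with a mean of 0.767 TPM, and Cox7a1 just above it with a mean of 1.92 TPM.

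RNA-seq compared SL4 mouse colorectal cancer cells, a luciferase-expressing line, as 3 pLV-Control libraries and 3 libraries of a stable pLV-SEMA6A line made with a lentivirus that overexpresses SEMA6A, a transmembrane semaphorin. The libraries labelled as without overexpression are called pLV-Control here, and the labels do not say whether those cells carried an empty vector. The pLV-SEMA6A cells are 1 line, and nothing says that the libraries of a group came from separate cultures, so the p-values measure only the spread between these libraries, which may be technical. Sema6a was listed at 0 in every pLV-Control library, and the pLV-SEMA6A libraries had 98.7, 118 and 112 TPM.

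Each library held a total of 977400 to 986444 TPM, and the number of reads is unknown. The 14 colon epithelial markers examined summed to 2.0 to 3.19 TPM with pLV-Control and 0.570 to 1.41 TPM with pLV-SEMA6A, with Epcam, Cdx1 and Cdx2 at 0 in all 6 libraries, so the defining markers of the labelled tissue were close to absent. The 10 fibroblast markers summed to 160 to 173 TPM with pLV-Control and 275 to 286 TPM with pLV-SEMA6A, with 3 rising and 2 falling of 6 tested. The leukocyte markers summed to 1.24 to 2.80 TPM against 1.14 to 1.9 TPM, and the endothelial markers to 0.430 to 0.550 TPM against 0.190 to 0.560 TPM. Whether the fibroblast marker difference has a part in the results on oxidative phosphorylation was not tested, and in bulk RNA fewer cells of a type and less RNA per cell cannot be told apart.

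Oxidative phosphorylation passes electrons from NADH through complex I, or from succinate through complex II, to complex III, cytochrome c and complex IV. The protons pumped on the way drive complex V, the ATP synthase, in which a membrane rotor (Fo) turns the catalytic head (F1). Most subunits are encoded in the nucleus, while the mitochondrial genome encodes the membrane core of complex I, cytochrome b of complex III, the catalytic core of complex IV and a pair of Fo subunits. Its mRNAs are cut from long shared precursors, and tRNAs lie between many of them.

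The mitochondrial genes have to be read with their nuclear copies in view. In the GENCODE M21 transcripts on GRCm38, mt-Nd3, mt-Nd4l, mt-Co2, mt-Co3 and mt-Atp6 each had a copy annotated as an unprocessed pseudogene on chromosome 1 that was identical over its aligned length of 342, 294, 681, 783 and 678 bases. The following stretches of 60 bases are shown because they carry this finding. They are bases 145 to 204 of the mt-Nd3 transcript with Gm28438, bases 362 to 421 of mt-Co3 with Gm28437, and bases 1063 to 1122 of mt-Co1 with Gm29216, a partial copy that aligned over 483 bases with 1 difference. Capitals mark the base that differs, A1066T, counted from 1 at the first base of the mt-Co1 transcript with the mitochondrial base first.
mt-Nd3: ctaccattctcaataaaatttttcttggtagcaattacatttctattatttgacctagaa
Gm28438: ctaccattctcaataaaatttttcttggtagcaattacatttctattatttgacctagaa
mt-Co3: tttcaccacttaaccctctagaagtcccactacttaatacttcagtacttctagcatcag
Gm28437: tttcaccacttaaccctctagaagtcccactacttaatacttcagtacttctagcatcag
mt-Co1: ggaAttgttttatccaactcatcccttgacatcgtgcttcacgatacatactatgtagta
Gm29216: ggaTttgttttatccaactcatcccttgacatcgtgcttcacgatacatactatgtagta

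The stretches show no difference between mt-Nd3 or mt-Co3 and its copy, so a read lying within them cannot be assigned by its sequence. Between 98.1% and 100% of the 31-base stretches of these 5 genes occurred in another gene. The 5 copies held 93.3 to 95.2% of the TPM of gene and copy together. In the rows of the mitochondrial genes themselves, the median coefficient of variation over the 5 was 44.1% in pLV-Control and 24.4% in pLV-SEMA6A, against 3.47% and 2.47% for the other 8 mitochondrial genes.

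mt-Co3, a core subunit of complex IV, shows the problem most plainly. Its own row held 215, 450 and 372 TPM with pLV-Control and 141, 0.330 and 443 TPM with pLV-SEMA6A. Summed with Gm28437, the values were 6386, 6466 and 6528 TPM with pLV-Control and 5495, 5241 and 5350.1 TPM with pLV-SEMA6A. The row alone gave a log2 fold change of -2.92 ± 2.03 (SE, limma, adjusted p = 0.278), and the sum gave -0.27 ± 0.02 (SE, limma, adjusted p = 0.000113). The value of 0.330 TPM with pLV-SEMA6A replicate 2 lay beside 5241 TPM in the copy of the same library. The 5 genes are therefore given below as the sum of gene and copy, a choice made after seeing the data. RNA transcribed from the mitochondrial genome and RNA transcribed from the copy cannot be told apart in these sums.

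**Figure D1:**
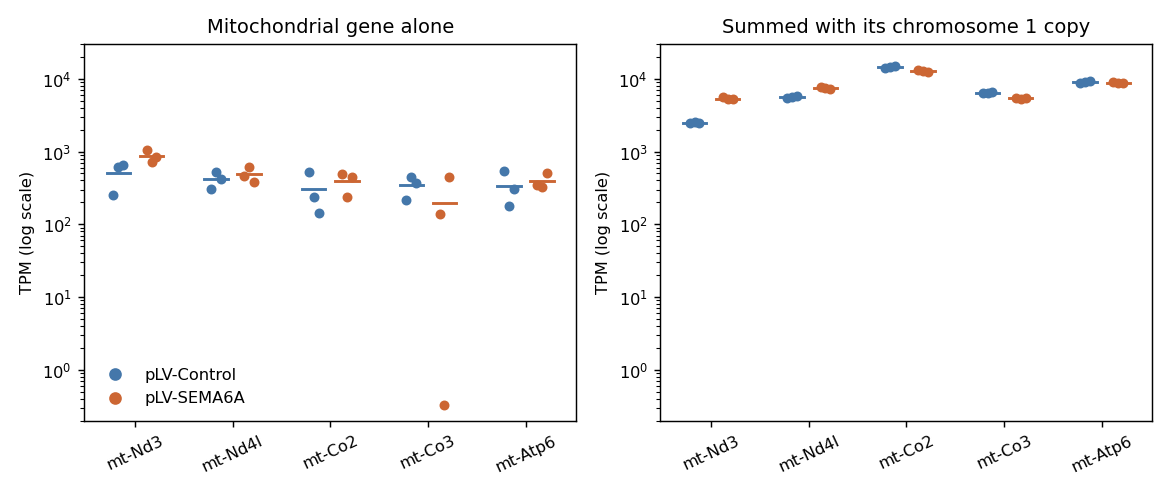
TPM of 5 mitochondrial genes in each library on a log scale, for the gene's own row on the left and for its sum with the identical chromosome 1 copy on the right; points are libraries and lines are group means of 3. The own rows scatter and fall to 0.330 TPM for mt-Co3 in 1 pLV-SEMA6A library, and the groups separate only for mt-Nd3. In the sums the libraries of a group lie close together, and the groups separate for every gene but mt-Atp6.

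With the copies included, the mitochondrial genes divided by the complex they encode. All 7 complex I genes and the complex III gene were higher in pLV-SEMA6A. All 3 complex IV genes were lower, and neither of the complex V genes passed the test. The annotated spans of mt-Nd4l and mt-Nd4 overlap, as do those of mt-Atp8 and mt-Atp6. The rows of each pair can share an RNA and are not counted as separate mRNAs. Of all 12510 genes tested, 47.6% passed, 19.5% being higher and 28.2% lower, at an adjusted p under 0.05 (limma, Benjamini-Hochberg over all genes tested). The libraries of the groups did not overlap for 58.5% of all genes tested. Read by their own rows alone, the counts of mitochondrial genes that passed were 6 higher and 1 lower of 13. The directions of all 11 that passed were the same after median centring of the libraries, with TMM scaling, with a replicate block and without any 1 of the 6 libraries.

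Among the complex I genes, mt-Nd3 differed most. It encodes a small membrane subunit beside the quinone site. With its copy, its level was 2503, 2539.8 and 2443 TPM with pLV-Control and 5526, 5297 and 5206 TPM with pLV-SEMA6A. Its log2 fold change was 1.10 ± 0.03 (SE, limma, adjusted p = 1.29e-06). Every pLV-SEMA6A library was above every pLV-Control library by far more than the spread within a group.

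mt-Nd1 and mt-Nd2 encode membrane subunits at the quinone end and in the proton-pumping arm, and neither has an identical copy over its length. mt-Nd1 was at 2794, 2859.7 and 2951 TPM with pLV-Control and 4952, 4729 and 4746 TPM with pLV-SEMA6A, a log2 fold change of 0.75 ± 0.03 (SE, limma, adjusted p = 7.53e-06). mt-Nd2 was at 1392.5, 1400.5 and 1525 TPM with pLV-Control and 2493, 2415 and 2339.9 TPM with pLV-SEMA6A, a log2 fold change of 0.75 ± 0.04 (SE, limma, adjusted p = 3.8e-05). For both genes the groups did not overlap. mt-Nd1 shared none of its 31-base stretches with another annotated transcript.

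The other complex I genes differed less. mt-Nd4l with its copy went from 5564 ± 233 to 7425 ± 161 TPM (mean ± SD, n = 3 libraries), with a log2 fold change of 0.42. mt-Nd4, mt-Nd5 and mt-Nd6 had log2 fold changes of 0.32, 0.34 and 0.35, with adjusted p-values (limma) of 0.000215, 0.00221 and 6.55e-05. mt-Nd6 is the only protein-coding gene on the opposite strand of the mitochondrial genome, and its libraries lay at 913 to 941 TPM with pLV-Control and 1151 to 1198 TPM with pLV-SEMA6A. In all 4 genes the groups did not overlap, beside 58.5% of all genes tested. Gm28439, a partial copy identical to mt-Nd4 over 876 bases, was listed at 0 in all 6 libraries.

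mt-Cytb, which encodes cytochrome b of complex III, was at 3544, 3544 and 3783 TPM with pLV-Control and 5528, 5342 and 5337 TPM with pLV-SEMA6A. Its log2 fold change was 0.58 ± 0.03 (SE, limma, adjusted p = 3.05e-05), and the groups did not overlap.

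The 3 complex IV genes went the other way. mt-Co1 encodes the subunit that carries the heme and copper site where oxygen is reduced. It was at 13707, 14055 and 14372 TPM with pLV-Control and 9899, 9479 and 9534 TPM with pLV-SEMA6A, and it fell by 0.54 ± 0.02 on the log2 scale (SE, limma, adjusted p = 1.58e-05). Gm29216, the partial copy of mt-Co1, was at 3405 to 3650.5 TPM with pLV-Control and 1675 to 1924 TPM with pLV-SEMA6A, so the fall was present in both rows. mt-Co2, which receives electrons from cytochrome c, was at 14250.4, 14479 and 15034 TPM with its copy with pLV-Control and at 12989, 12651 and 12533 TPM with pLV-SEMA6A. Its log2 fold change was -0.20 ± 0.02 (SE, limma, adjusted p = 0.000835), whereas its own row gave 0.50 ± 0.51 (SE, limma, adjusted p = 0.449). The sign of mt-Co2 therefore turned with the inclusion of the copy. The sum with the copy was lower in every pLV-SEMA6A library than in any pLV-Control library.

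The complex V genes did not differ between the groups beyond their spread. mt-Atp6, the Fo subunit of the proton path, was at 8997 ± 270.3 TPM with its copy in pLV-Control and 8859 ± 244 TPM with pLV-SEMA6A (mean ± SD, n = 3), and its libraries overlapped. mt-Atp8, whose reading frame overlaps that of mt-Atp6, was at 30943 ± 2333 and 30212 ± 1091 TPM, a log2 fold change of -0.03 (limma, adjusted p = 0.655). mt-Atp8 alone made up over 50% of the TPM summed over the 13 mitochondrial rows in each group.

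**Figure D2:**
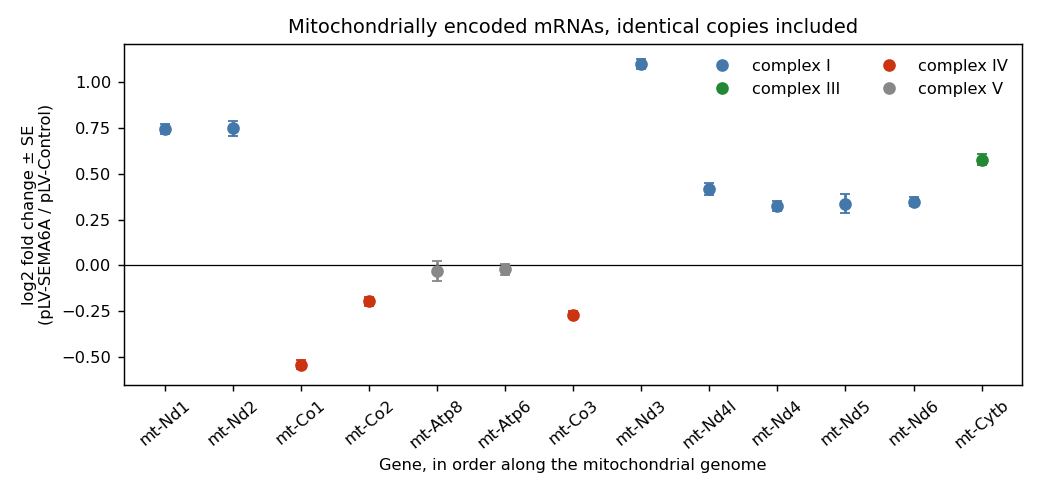
Log2 fold change (pLV-SEMA6A over pLV-Control, limma on log2(TPM + 1)) of the 13 mitochondrial genes in their order along the mitochondrial genome. Bars give the SE and colours the complex, and 5 genes are summed with their identical copies. The complex IV genes lie below 0 and the complex I and III genes above 0. All 3 genes below 0 past the test lie in the stretch from mt-Co1 to mt-Co3, with mt-Nd3 at 1.10 directly after mt-Co3 at -0.27.

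Complex and position went together. The order along the genome read mt-Nd1 and mt-Nd2 (higher), mt-Co1 and mt-Co2 (lower), mt-Atp8 and mt-Atp6 (not past the threshold), mt-Co3 (lower), and then mt-Nd3, mt-Nd4l, mt-Nd4, mt-Nd5, mt-Nd6 and mt-Cytb (higher). The 3 falls thus lay in a single stretch that held no rise, and the complex encoded and the place along the genome cannot be told apart. Outside the protein-coding genes, mt-Rnr2, the large ribosomal RNA, was at 413, 359.8 and 388 TPM with pLV-Control and 1058, 1006 and 1004 TPM with pLV-SEMA6A (log2 fold change 1.40, limma, adjusted p = 7.76e-06), and mt-Rnr1, the small one, was at 517 ± 45.8 and 522 ± 32.7 TPM. The libraries were made from poly-A selected RNA, and a part of that selection in these differences was not tested.

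The nuclear genes moved less and in both directions. Of 90, 36 rose (40%), 15 fell (16.7%) and 39 did not pass the test (limma, adjusted p under 0.05), beside 19.5% and 28.2% of all genes tested. After median centring of the libraries, 47 rose and 8 fell, beside 26.9% and 19.8% of all genes. Their median log2 fold change was 0.07, against -0.06 over all genes tested. With an absolute log2 fold change over 0.5 required as well, 5 rose (Ndufv2, Atp5g1, Atp5j2, Atp5g3 and Ndufa4) and 1 fell (Ndufa6), beside 5.12% and 10.8% of all genes, or 15.9% in either direction. The libraries of the groups did not overlap for 57 of the 90, beside 58.5% of all genes.

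**Figure D3:**
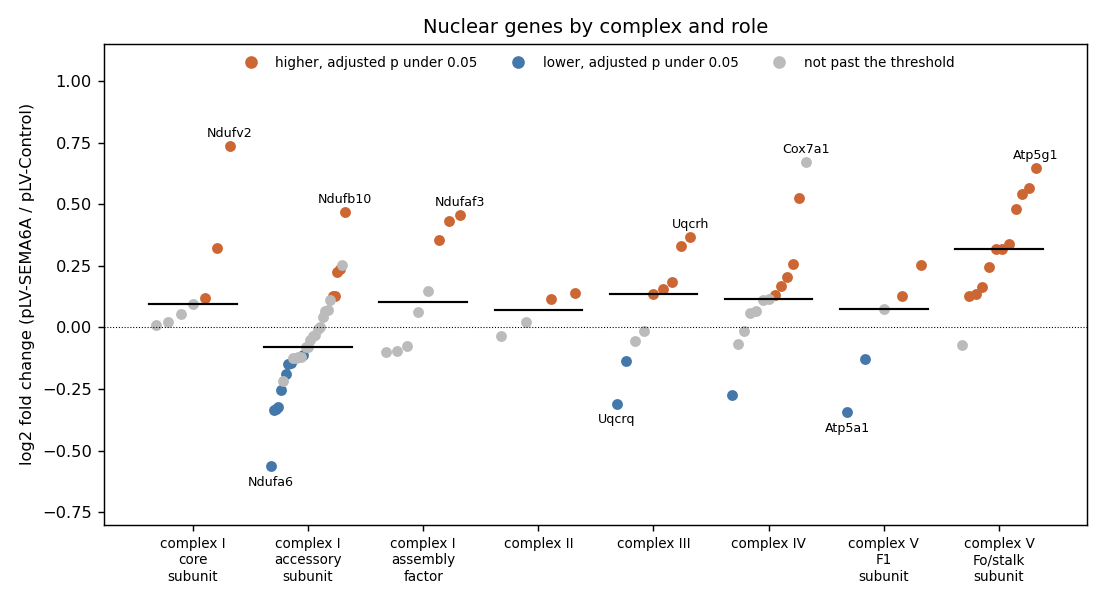
Log2 fold change (pLV-SEMA6A over pLV-Control) of each nuclear gene, grouped by complex and role and sorted within a group; colour gives the call at an adjusted p under 0.05 and black lines are group medians. The Fo and stalk subunits of complex V lie almost wholly above 0 with a median of 0.32, while the accessory subunits of complex I spread from -0.56 to 0.47 around a median of -0.08.

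Nuclear complex I was read by role, beside 19.5% higher and 28.2% lower among all genes tested, or 26.9% and 19.8% after median centring. Of its 7 core subunits, which carry the flavin, the iron-sulfur clusters and the quinone site, 3 rose (42.9%) and none fell. After median centring 6 of them rose. Of 31 accessory subunits, which surround that core, 5 rose (16.1%) and 9 fell (29.0%), near the shares of all genes. After median centring 8 of these rose and 5 fell. Of 8 assembly factors, 3 rose (37.5%) and none fell. The core and assembly groups are small. The summed TPM of nuclear complex I differed by -1.83%. The accessory subunits include the row Ndufb4c, at 196 to 231 TPM with pLV-Control and 208 to 241 TPM with pLV-SEMA6A, which GENCODE M21 annotates as a processed pseudogene and whose 31-base stretches all occur in Ndufb4. Without it the sum of nuclear complex I differed by -2.18%. Ndufb4c did not pass the test, and reads of it and of Ndufb4 cannot be told apart in those stretches.

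Ndufv2, a core subunit that holds an iron-sulfur cluster next to the flavin, had the largest rise among the nuclear genes that passed. It was at 60.5, 59.1 and 54.0 TPM with pLV-Control and 98.2, 94.1 and 98.5 TPM with pLV-SEMA6A, a log2 fold change of 0.74 ± 0.05 (SE, limma, adjusted p = 7.2e-05). Ndufa6, an accessory subunit of the matrix arm, had the largest fall. It was at 315, 314 and 307 TPM with pLV-Control and 210.5, 212 and 211 TPM with pLV-SEMA6A, a log2 fold change of -0.56 ± 0.02 (SE, limma, adjusted p = 8.3e-06). The 2 genes belong to the same complex and differed in opposite directions, each with no overlap between the groups.

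Ndufb10, an accessory subunit of the membrane arm, was at 109 ± 4.66 TPM with pLV-Control and 152 ± 7.34 TPM with pLV-SEMA6A, a log2 fold change of 0.47. Ndufa7 was at 400.1 ± 16.4 and 317 ± 3.72 TPM, and Ndufb5 at 198 ± 11.0 and 157 ± 14.5 TPM (mean ± SD, n = 3), with log2 fold changes of -0.33 each. Both accessory subunits had groups that did not overlap. Ndufa13, also named Grim19, fell by 0.32 on the log2 scale (limma, adjusted p = 0.00984). However, 33.2% of its 31-base stretches occurred in other genes, chiefly the overlapping Tssk6, so its value is uncertain. Tssk6 itself was listed at 0 to 0.38 TPM, against 54.28 to 79.3 TPM for Ndufa13.

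Among the assembly factors, Ndufaf3 was at 9.89, 8.42 and 8.38 TPM with pLV-Control and 12.8, 12.1 and 12.7 TPM with pLV-SEMA6A (log2 fold change 0.46, limma, adjusted p = 0.00358). Ndufaf4, its partner in early assembly, rose with a log2 fold change of 0.35, and Ndufaf2 with 0.43. For Ndufaf2, 65.1% of the 31-base stretches were shared with other genes, chiefly B230220B15Rik, which was listed at 0.31 to 0.79 TPM.

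Complex II, which has no mitochondrially encoded subunit, changed little. Sdha, the flavoprotein, was at 129 to 130.1 TPM with pLV-Control and 139.8 to 144 TPM with pLV-SEMA6A, a log2 fold change of 0.14 ± 0.02 (SE, limma, adjusted p = 0.00445). Sdhb, the iron-sulfur subunit, had a log2 fold change of 0.12 (limma, adjusted p = 0.0256), which was past the threshold neither without pLV-Control replicate 1 or 3 nor without pLV-SEMA6A replicate 1 or 2, with adjusted p-values of 0.0674 to 0.0755. The membrane anchors Sdhc and Sdhd had log2 fold changes of -0.04 and 0.02 (limma, adjusted p = 0.699 and 0.68), and their libraries overlapped.

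In nuclear complex III, 5 of 9 subunits rose (55.6%) and 2 fell (22.2%), or 5 and 1 after median centring. All genes tested had 19.5% higher and 28.2% lower, or 26.9% and 19.8% after median centring. Uqcrh, the hinge protein near cytochrome c1, was at 237 ± 3.73 TPM with pLV-Control and 306 ± 20.1 TPM with pLV-SEMA6A. Uqcrq, a small subunit bound to cytochrome b, was at 588 ± 28.8 and 474 ± 22.7 TPM, and fell by 0.31 on the log2 scale (limma, adjusted p = 0.00235). The nuclear partners of mt-Cytb in the electron path were the Rieske protein Uqcrfs1, with a log2 fold change of 0.16 (limma, adjusted p = 0.033), and cytochrome c1, Cyc1, with -0.06 (limma, adjusted p = 0.232). The call of Uqcrfs1 was lost without pLV-Control replicate 1 or 3 or pLV-SEMA6A replicate 1 or 3 (adjusted p = 0.0811 to 0.0959) and with a replicate block (adjusted p = 0.0852), and Cyc1 passed as lower without pLV-Control replicate 1 (adjusted p = 0.0356). The summed TPM of nuclear complex III was 2276 to 2295 in pLV-Control and 2258 to 2398 in pLV-SEMA6A, and these ranges overlapped.

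In nuclear complex IV, 5 of 13 subunits rose (38.5%) and 1 fell (7.69%), or 9 and 0 after median centring. The shares of all genes tested were 19.5% and 28.2%, or 26.9% and 19.8% after centring. All 3 subunits of the mitochondrially encoded core fell. The summed TPM of the nuclear subunits was 4860.3 ± 56.9 in pLV-Control and 5202 ± 2.75 in pLV-SEMA6A, 7.02% higher, with no overlap. Ndufa4, which is now counted as a complex IV subunit despite its name, was at 253, 245 and 246 TPM with pLV-Control and 363, 348 and 360.1 TPM with pLV-SEMA6A. Its log2 fold change was 0.52 ± 0.03 (SE, limma, adjusted p = 2.68e-05), and the groups did not overlap. Cox4i1, a regulatory subunit with the second highest mean among the nuclear genes, was at 717, 720.3 and 723 TPM with pLV-Control and 711, 722 and 705 TPM with pLV-SEMA6A. Its libraries overlapped, and its log2 fold change of -0.02 (limma, adjusted p = 0.512) became 0.08 (adjusted p = 0.0101) after median centring of the libraries and 0.05 (adjusted p = 0.0389) with TMM scaling.

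Several complex IV subunits exist as a widely expressed form and a form known from heart and skeletal muscle, testis or lung. The widely expressed forms Cox4i1, Cox6a1, Cox6b1, Cox7a2 and Cox8a had group means between 207 and 720.2 TPM. Cox6b2 and Cox8b were listed at 0 in all 6 libraries, and Cox4i2 was above 0 in 1 library, at 0.130 TPM. The muscle form Cox6a2 was the exception, at 75.8, 83.9 and 88.9 TPM with pLV-Control and 66.0, 69.4 and 69.5 TPM with pLV-SEMA6A. It fell by 0.27 on the log2 scale (limma, adjusted p = 0.0111; adjusted p = 0.0544 after median centring of the libraries), while Cox6a1 rose by 0.13 (limma, adjusted p = 0.0034). The muscle form Cox7a1 was at 0.820 to 1.52 TPM with pLV-Control and 1.37 to 3.8 TPM with pLV-SEMA6A, and its libraries overlapped. It passed only without pLV-SEMA6A replicate 1 (limma, adjusted p = 0.0196) or with a replicate block.

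Cox7a2l, a relative of these subunits that joins complexes III and IV into supercomplexes, fell. It was at 223, 229 and 215 TPM with pLV-Control and 155, 167 and 166 TPM with pLV-SEMA6A, a log2 fold change of -0.45 ± 0.04 (SE, limma, adjusted p = 0.000228). The groups did not overlap.

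Complex V held the most rises. Of its 17 nuclear subunits 13 rose (76.5%) and 2 fell (11.8%), or 14 and 1 after median centring. Among all genes tested 19.5% rose and 28.2% fell, or 26.9% and 19.8% after centring. Of the 12 Fo and stalk subunits, 11 rose. Atp5l did not pass (log2 fold change -0.07, limma, adjusted p = 0.129), although it passed as lower without pLV-Control replicate 3 (adjusted p = 0.0115). However, Atp5l shares 4.32% of its stretches with the processed pseudogene Gm10221, at 128 to 172 TPM with pLV-Control and 172 to 271 TPM with pLV-SEMA6A. It shares 2.51% with Gm4045, at 13.7 to 33.7 TPM and 7.27 to 19.4 TPM. Sums with these rows were not tested, so the direction of Atp5l is uncertain. Of the 5 F1 subunits, 2 rose (40%) and 2 fell (40%). The Fo and stalk subunits summed to 3556, 3554 and 3422 TPM with pLV-Control and to 4273, 4344 and 4323.5 TPM with pLV-SEMA6A, 22.9% higher, and 22.8% higher without Atp5g2, whose row is uncertain as given below. The F1 subunits summed to 3607 ± 62.7 and 3729 ± 116 TPM, and their ranges overlapped.

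The ring of subunit c, which turns as protons pass, is encoded by Atp5g1, Atp5g2 and Atp5g3 as proteins that mature to the same sequence. Atp5g1 was at 349, 347 and 356 TPM with pLV-Control and 538, 549.9 and 559 TPM with pLV-SEMA6A, a log2 fold change of 0.64 ± 0.02 (SE, limma, adjusted p = 6.47e-06). Atp5g3 was at 415, 394 and 385 TPM with pLV-Control and 566.5, 578 and 592 TPM with pLV-SEMA6A, a log2 fold change of 0.54 ± 0.03 (SE, limma, adjusted p = 5.58e-05). In both genes the groups were far apart relative to their spread. The row of Atp5g2 was at 36.0 ± 2.16 and 45.2 ± 1.94 TPM (mean ± SD, n = 3) and passed as higher (log2 fold change 0.32, limma, adjusted p = 0.00417). However, 37.5% of its 31-base stretches occurred in Gm10175, a transcribed processed pseudogene on chromosome 7 listed at 905 to 920 TPM with pLV-Control and 873 to 897 TPM with pLV-SEMA6A. Atp5g2 and Gm10175 together were at 950.2 ± 8.1 and 928 ± 14.8 TPM, 2.36% lower in pLV-SEMA6A, so the level and the direction of Atp5g2 are uncertain.

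The small membrane subunits Atp5j2 (subunit f) and Atp5k (subunit e) had log2 fold changes of 0.56 and 0.48. Atp5j2 was at 144 ± 6.41 TPM with pLV-Control and 213 ± 10.1 TPM with pLV-SEMA6A, and Atp5k at 155 ± 11.5 and 216 ± 4.26 TPM. In F1, Atp5a1 (the alpha subunit) was at 600.4, 597 and 607 TPM with pLV-Control and 470.0, 476 and 475 TPM with pLV-SEMA6A. It fell by 0.34 ± 0.02 on the log2 scale (SE, limma, adjusted p = 2.81e-05), with no overlap. Atp5b (the catalytic beta subunit), the highest nuclear gene of the set, was at 2071, 2064 and 2009.65 TPM with pLV-Control and 2141, 2223 and 2362 TPM with pLV-SEMA6A. Its log2 fold change was 0.13 (limma, adjusted p = 0.0266), and the call was lost without pLV-Control replicate 1, 2 or 3 or pLV-SEMA6A replicate 2, with adjusted p-values of 0.0544 to 0.0802. The alpha and beta subunits, which alternate in the F1 head, thus had differences of opposite sign.

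**Figure D4:**
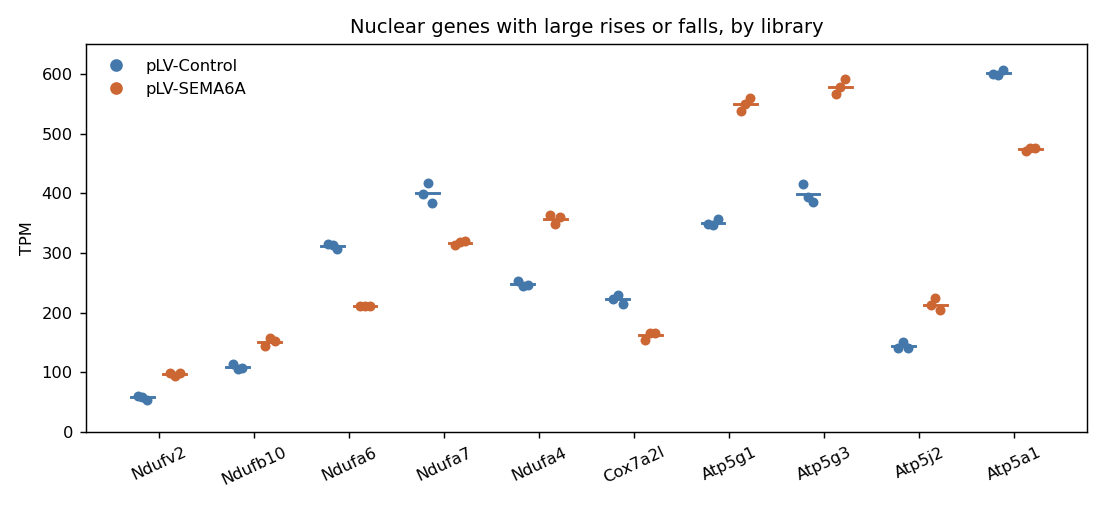
TPM of 10 nuclear genes in each library; points are libraries and lines are group means of 3. In each gene the 3 pLV-SEMA6A libraries lie wholly above or wholly below the 3 pLV-Control libraries, for example 538 to 559 TPM against 347 to 356 TPM for Atp5g1. The genes were picked from the largest rises and falls that passed, so the choice favours such separation, which 58.5% of all genes tested also had.

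Summed over the 90 nuclear genes, the level was 21243, 21265 and 20778 TPM with pLV-Control and 21956, 22348 and 22489.8 TPM with pLV-SEMA6A, 5.54% higher. The mitochondrial genes with their copies and without mt-Atp8 summed to 62705, 63719 and 65953 TPM with pLV-Control and 68856, 66372 and 65987 TPM with pLV-SEMA6A, 4.59% higher. Neither pair of ranges overlapped, though the mitochondrial ones lay close together. mt-Atp8 was set apart, after the data were seen, because it alone makes up so much of the mitochondrial TPM. With it the ranges were 91618 to 99445.5 and 95429 to 98590.4 TPM, which overlapped, with a difference of 2.33%. The lack of overlap in the mitochondrial sums thus depends on that choice. The ratio of the mitochondrial to the nuclear sum was taken with the copies and without mt-Atp8. This ratio was 3.04 ± 0.12 in pLV-Control and 3.01 ± 0.11 in pLV-SEMA6A (mean ± SD, n = 3), and its ranges overlapped. Taken instead as the mean over genes of log2(TPM + 1), the mitochondrial genes with their copies, mt-Atp8 included, stood 4.80, 4.79 and 4.89 above the nuclear genes in pLV-Control and 5.07, 5.01 and 4.98 above them in pLV-SEMA6A, a difference of 0.19 with no overlap. Within the mitochondrial sum the composition differed, with complex I and III genes higher and complex IV genes lower.

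**Figure D5:**
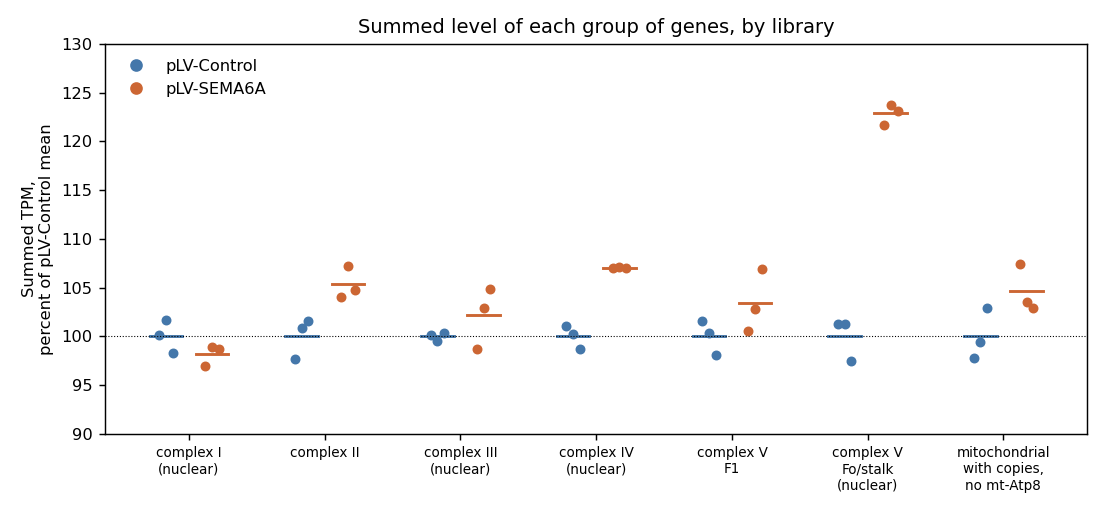
Summed TPM of each group of genes in each library, as a percent of the pLV-Control mean of that group, on an axis that starts at 90; points are libraries and lines are group means of 3. The Fo and stalk genes of complex V stand 22.9% above pLV-Control and complex IV 7.02% above, while complex I lies 1.83% below.

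The promoters of the nuclear genes were searched for a few short motifs, each on both strands. RefSeq windows on GRCm38.p6 from 250 bases before to 50 bases after the start were found for 74 of the 90 nuclear genes. The letters GCGCATGC, from the site of nuclear respiratory factor 1, which regulates many respiratory chain genes, occurred in 12 of 74 windows (16.2%), against 2.81% of all 27025 windows and 5.83% of the windows of 9206 tested genes. They stood in 7 of 31 windows of genes that rose and 1 of 11 windows of genes that fell. The letters AAGATGGCG, known for YY1, occurred in 7 of 74 (9.46%), against 3.56% of tested genes, and the ETS core CCGGAAG in 18 of 74 (24.3%), against 19.9%. The GC box GGGCGG occurred in 44.6% against 66.2%, CCAAT in 43.2% against 39.97%, and TATAAA in 8.11% against 6.58%. A match is a description of letters in a window, not of binding. Stretches of 60 bases upstream of the start are shown for a pair of complex V genes whose rows passed as higher (Atp5g2 with the uncertainty given above) and for the nuclear gene with the largest fall, with the matched letters in capitals. They lie at chr5:108434415-108434474, chr15:102671055-102671114 and chr15:82354340-82354399, all on the minus strand.
Atp5k: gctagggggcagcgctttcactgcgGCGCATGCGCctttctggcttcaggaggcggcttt
Atp5g2: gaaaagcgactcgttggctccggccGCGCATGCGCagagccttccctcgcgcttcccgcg
Ndufa6: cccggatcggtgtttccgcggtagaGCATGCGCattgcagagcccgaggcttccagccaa

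The 12 genes with these letters were Atp5g2, Atp5k, Cox6a1, Ndufa8, Ndufaf4, Sdhb and Uqcr11, which rose, Ndufa6, which fell, and Atp5l, Ndufa11, Ndufaf5 and Uqcrc1, whose log2 fold changes of -0.08 to -0.01 did not pass. The letters thus stood in the windows of genes with differences of either sign. The windows of the 5 largest rises (Ndufv2, Atp5g1, Atp5j2, Atp5g3 and Ndufa4) did not hold them.

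Genes outside the rule that act on the respiratory chain were read from lists. All counts on these lists stand beside 19.5% higher and 28.2% lower among all genes tested, or 26.9% and 19.8% after median centring. Of 45 further assembly factors tested, 9 rose (20%) and 8 fell (17.8%), shares near or below those of all genes, and 10 rose and 7 fell after centring. Lyrm7, which helps insert the Rieske protein into complex III, was at 4.05, 3.37 and 2.25 TPM with pLV-Control and 9.38, 5.97 and 7.95 TPM with pLV-SEMA6A (log2 fold change 1.06, limma, adjusted p = 0.00677), and Dmac2 fell by 0.89 on the log2 scale (limma, adjusted p = 0.00198). Taco1, the translational activator of mt-Co1, was at 15.6, 14.2 and 15.2 TPM with pLV-Control and 10.8, 10.4 and 10.8 TPM with pLV-SEMA6A (limma, adjusted p = 0.000972), and is named after its values were seen. The groups did not overlap for any of the 3, beside 58.5% of all genes tested.

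Of 18 genes of mitochondrial DNA replication and transcription, 4 rose (22.2%, near the share of all genes) and 1 fell (5.56%), and 5 rose and 0 fell after centring. Tfb2m, the transcription initiation factor, was at 16.9, 16.8 and 16.0 TPM with pLV-Control and 25.9, 26.1 and 26.5 TPM with pLV-SEMA6A (log2 fold change 0.63, limma, adjusted p = 8.23e-05), and Ssbp1, the single-strand DNA binding protein, had a log2 fold change of 0.33. Polrmt, the RNA polymerase, had 0.15 (limma, adjusted p = 0.314). Tfam, which packages the genome, had 0.32 (limma, adjusted p = 0.046), with overlapping libraries, and among the 6 single libraries only the omission of pLV-Control replicate 3 kept that call, the other adjusted p-values being 0.0588 to 0.12.

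Of 17 genes of mitochondrial RNA processing and stability, 5 rose (29.4%) and 6 fell (35.3%), and 6 rose and 3 fell after centring. Pnpt1, a component of the RNA degradation complex, was at 65.2, 66.2 and 68.8 TPM with pLV-Control and 46.1, 42.4 and 42.0 TPM with pLV-SEMA6A (log2 fold change -0.61, limma, adjusted p = 0.000134). Grsf1, an RNA granule protein that binds guanine-rich RNA, was at 57.6 ± 1.6 and 38.3 ± 2.54 TPM (log2 fold change -0.58, limma, adjusted p = 0.000309). Lrpprc, which holds mitochondrial mRNAs stable, rose with a log2 fold change of 0.44 (limma, adjusted p = 9.66e-05).

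Of 13 transcription factors and coactivators tested, 1 rose (7.69%) and 5 fell (38.5%), but 5 rose and 3 fell after centring, so the balance turned with the scaling. Esrra, the estrogen-related receptor alpha, was at 19.2, 16.9 and 16.3 TPM with pLV-Control and 10.6, 11.3 and 10.4 TPM with pLV-SEMA6A (log2 fold change -0.65, limma, adjusted p = 0.000659). Nrf1 had a log2 fold change of 0.21 (limma, adjusted p = 0.0649), and 0.30 (adjusted p = 0.0174) after median centring, and it passed without pLV-Control replicate 3 (adjusted p = 0.0238). Ppargc1a, the coactivator PGC-1 alpha, stayed at 0.0700 to 0.210 TPM in all 6 libraries. Ppargc1b fell by 0.47 on the log2 scale (limma, adjusted p = 0.0326), a call kept only without pLV-SEMA6A replicate 3 among the 6 omissions, the other adjusted p-values being 0.06 to 0.0983.

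Of 18 tricarboxylic acid cycle genes, which feed electrons to the chain, 9 rose (50%) and 5 fell (27.8%), or 11 and 4 after centring, with Dlst at 0.38 and Pdha1 at -0.33 on the log2 scale. Of 21 electron carrier and ADP or phosphate carrier genes, 9 rose (42.9%) and 5 fell (23.8%), or 11 and 4 after centring, with Pdss1 and Coq4, both of coenzyme Q synthesis, at 0.85 and 0.39. Cycs, cytochrome c, was at 72.8 ± 1.85 and 84.5 ± 1.72 TPM (log2 fold change 0.21, limma, adjusted p = 0.00249). Of 78 mitochondrial ribosomal protein genes, which build the ribosome for the mitochondrial mRNAs, 28 rose (35.9%) and 10 fell (12.8%). After centring, 37 rose and 4 fell. The largest rises among these were Mrps6 and Mrpl17, with log2 fold changes of 0.96 and 0.95, and their groups did not overlap.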

How the data were processed

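RNA-seq libraries of SL4 cells were compared as 3 pLV-Control and 3 pLV-SEMA6A samples, grouped by their labels. The authors captured poly-A RNA and deposited TPM per gene and library, with the mean TPM of each group, which was not used. The submitters' processing notes name Bowtie2, HISAT, RSEM and the build mm39, with no versions. The number of reads is not known, and no detection limit was computed, and a 0 can be a failed estimate. A tool that divides reads among identical sequences can move TPM between a gene and its copy.

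log2(TPM + 1) over 12510 genes (mean TPM of 1 or more) was fitted with limma 3.58.1 (R 4.3.3, trend, group as the only term), with Benjamini-Hochberg adjustment. Fold changes are on that scale and understate low genes. The genes and lists were chosen with earlier results of these data known. Named were all mitochondrial genes, complex II, the 8 largest rises and 8 largest falls of nuclear genes that passed, the 3 highest, paired isoforms, and the leading 2 of each list with 7 set names; others named (among them Ndufaf2, Ndufaf4, Uqcrh, Uqcrfs1, Cyc1, Atp5g2, Atp5l and Taco1) were added after their values were seen. In simulated data with 200 of 12510 genes changed by 1 log2 unit, 82.5% were recovered. Most differences given here are smaller and far more genes passed, so that rate does not apply to them. Shared sequence was counted as 31-base stretches over GENCODE M21 transcripts on GRCm38, which is not the build of the deposited table, so positions are given only for RefSeq sequences on GRCm38.p6. Copies were aligned with Biopython 1.88. Alternatives were other pseudocounts, filters and scalings, a replicate block and the omission of each library. Sums with the copies and sums without mt-Atp8 were chosen after seeing the data.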

Additional observations from a re-analysis of the deposited data

How the results depend on the processing

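Of the 36 nuclear genes higher and 15 lower, with a median log2 fold change of 0.07, median centring left 8 lower with a median of 0.16, TMM scaling 9 lower with a median of 0.14, and rescaling without the mitochondrial genes a median of 0.083; these scalings act on all genes of a library alike. Over all genes tested, 2436 were higher and 3523 lower of 12510. Centring gave 3370 higher and 2474 lower, and TMM scaling 3062 and 2772 of 12503, so lower calls became fewer over all genes as well. A minimum absolute log2 fold change of 0.5 left 5 nuclear genes higher and 1 lower, and 3 mitochondrial genes higher, beside 5.12% and 10.8% of all genes. Centring moved the mitochondrial median from 0.34 to 0.43 and the genes lower on the pathway lists from 40 to 25. Summing the mitochondrial genes with their copies gave 3 lower instead of 1, alone, with centring (nuclear: 8 lower, median 0.16; mitochondrial median 0.43; lists: 25 lower), with TMM scaling (nuclear: 9 lower, median 0.14), with the replicate block and without any single library. mt-Co2 turned from 0.50 to -0.20 in these sums, to -0.10 with centring as well, to -0.13 with TMM scaling, to -0.20 with the block and to -0.21, -0.20, -0.18, -0.21, -0.193 and -0.186 without single libraries. Cox4i1 turned from -0.02 to 0.078 with centring, 0.053 with TMM scaling, and 0.077 and 0.053 in the same scalings of the sums. The summed TPM of the mitochondrial genes was 27940.3 and 29689.5 without mt-Atp8, and 95069 and 97284 with the copies, in pLV-Control and pLV-SEMA6A.

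Without single libraries, 30 to 34 nuclear genes were higher and 11 to 15 lower, with medians of 0.065 to 0.0895. Of the mitochondrial genes, 6 were higher and 1 lower, with medians of 0.31 to 0.37. Over all genes tested, 12465 to 12543, these omissions gave 2095 to 2141 higher and 2917 to 3146 lower. In the sums with the copies these omissions gave 8 higher and 3 lower, nuclear medians of 0.083 and 0.0895 without pLV-Control replicate 2 and pLV-SEMA6A replicate 3, and mitochondrial medians of 0.31 to 0.36. The lists had 54 to 62 genes higher and 32 to 38 lower.

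No pairing of the libraries by replicate number was seen. The deviations of same-numbered libraries correlated at -0.0795 to -0.0228, and those of other pairs at -0.01 to 0.0788. These values cannot show whether libraries were processed in pairs. With a replicate block, 34 nuclear genes were higher and 12 lower, and 6 mitochondrial genes higher and 1 lower. Over all 12510 genes tested, the block gave 2168 higher and 3059 lower. Atp5b (adjusted p = 0.0586), Ppargc1b (adjusted p = 0.0885) and Uqcrfs1 (adjusted p = 0.0852) lost their calls, and Cox7a1 (adjusted p = 0.0425, limma) gained one. No other gene named in the text changed its call under the block. The number of reads is unknown, which limits what can be said of genes near 1 TPM.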
